A study of Mus musculus with 36 samples.

Results

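Collagens and a small set of fibroblast matrix genes were followed through B cell to macrophage transdifferentiation (BMT). The 50 genes were the 41 collagen chain genes with symbols of the form Col, number, a, number in the normalised expression tables, plus Dcn, Lum, Sparc, Fbn1, Postn, Pdgfrb, Thbs1, Mmp2 and Fn1, out of 19067 genes listed there. Col13a1, Col26a1 and Col9a1 had only 38, 61 and 22 counts over all libraries, stood only in the raw count tables and were not included.

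The cells were bone marrow B cells of C57BL/6J mice carrying a retroviral fusion of C/EBPα with the estrogen receptor and a human CD4 reporter. The fusion was wild type (WT) or carried alanine (R35A) or lysine (R35K) in place of arginine 35, and all 3 constructs were switched on with estradiol (E2). The paper's methods also describe culture of the isolated B cells on S17 feeder cells. hCD4+ cells were grown over inactivated mouse embryonic fibroblast (MEF) feeders with IL-7, and macrophage cytokines accompanied E2. Cells were taken at 0, 1, 3, 6, 18 and 120 hours post induction (hpi) by trypsinization, and feeders were then depleted by adherence to culture dishes. Each of the 18 combinations had 2 RNA-seq libraries, 36 in all. The labels do not give the ages of the mice, and they do not say whether the replicates came from separate mice. P-values and standard errors (SE) thus measure the spread between these libraries, pooled over all groups tested together. The noise ratio, a measure of the difference between the 2 libraries of a group, was highest at 120 hpi. It was 1.932 in WT, 2.339 in R35A and 2.464 in R35K cells, and at most 1.547 at earlier times. SE and p-values at 120 hpi may therefore be too small. The 120 hpi samples are labelled macrophages and all earlier ones B cells. R35K libraries came in a count table of their own, so a difference of R35K from WT and a difference between the tables cannot be told apart.

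Fibrillar collagens (types I, II, III, V, XI, XXIV and XXVII) are triple helices of 3 chains that pack into tension-bearing fibrils. Type IV forms the sheet of basement membranes, and type VI forms beaded microfilaments. Decorin (Dcn) and lumican (Lum) are small leucine-rich proteoglycans that bind fibrils, whereas Fn1 (fibronectin) and Thbs1 (thrombospondin 1) are glycoproteins that many cell types, macrophages among them, can secrete. B cells are not a typical source of interstitial collagen, and fibroblasts such as MEFs are its classical source.

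Libraries held 13044456 to 23131776 counts. B cell markers (10 genes, Pax5 among them) summed to between 3892 and 4238 CPM (counts scaled by library size) at 0 hpi and between 121 and 179 CPM at 120 hpi. The 14 macrophage markers summed to between 89.7 and 97.7 CPM at 0 hpi and between 20317 and 33078 CPM at 120 hpi. RNA of fibroblast marker genes was present in the libraries labelled B cells, and which cells it came from was not tested. The 18 fibroblast markers that are not members, such as Pdgfra, Twist1, Prrx1 and Bgn, summed to between 5791 and 6106 CPM in the 6 libraries at 0 hpi. Among these markers Acta2, with 1459 to 1574 CPM, and Bgn, with 1442 to 1583, were large parts of that sum. In bulk RNA, fewer cells of a type and less RNA per cell cannot be told apart, and this holds for every level below.

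The 50 genes together took 1.46% ± 0.019 (SD, n = 2) of all counts in WT cells at 0 hpi, 3.59% ± 0.040 at 18 hpi and 2.19% ± 0.021 at 120 hpi. Fn1 and Thbs1 made up most of this. Without them, the other 48 genes in WT cells took 0.646% of counts at 0 hpi, 1.51% at 18 hpi and 0.0411% at 120 hpi. Their share was 0.691% at 0 hpi, 1.196% at 1 hpi and 0.121% at 120 hpi for R35A. For R35K it was 0.672%, 0.936% and 0.0940% at the same times. The non-member fibroblast markers had similar shares in WT cells, with 0.610% of counts at 0 hpi, 1.35% at 18 hpi and 0.0427% at 120 hpi. They stood at 0.123% in R35A and 0.102% in R35K cells at 120 hpi. By contrast, the joint share of Fn1 and Thbs1 in WT cells was 2.08% of counts at 18 hpi and 2.15% at 120 hpi. Between these times their share fell from 1.531% to 1.09% in R35A cells, and R35K cells had 1.214% and then 1.235%. Both mutants thus ended above their shares before induction, which were 0.862% for R35A and 0.844% for R35K. Feeder RNA was not measured apart from that of the sorted cells, so its part in these levels was not tested.

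**Figure D1:**
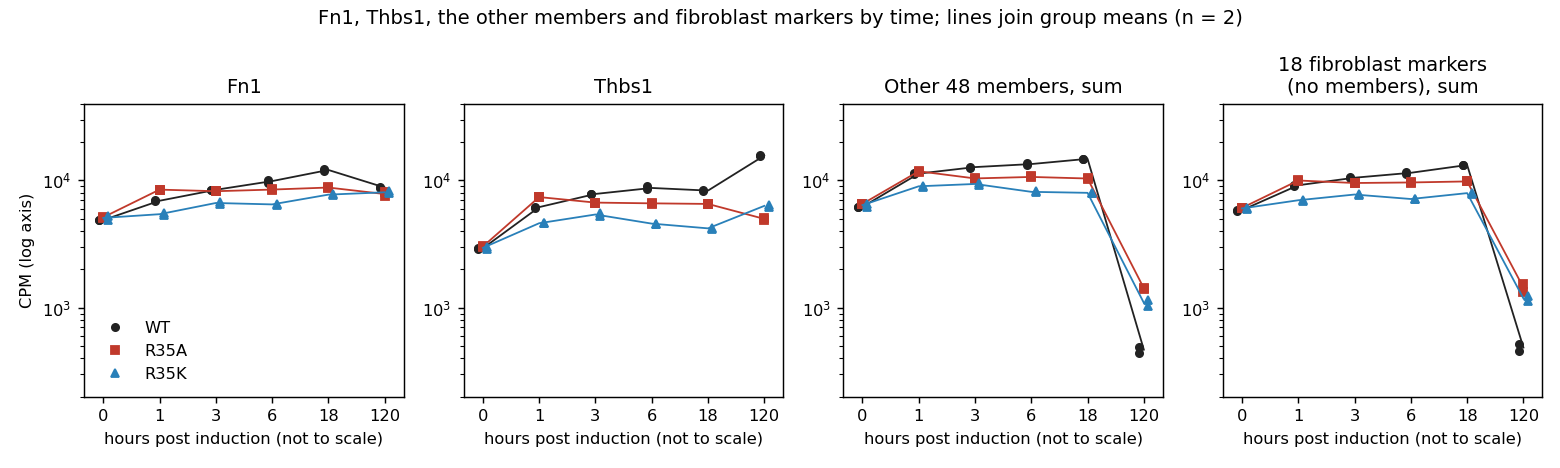
CPM (log axis) of Fn1, of Thbs1, of the other 48 members summed and of the 18 non-member fibroblast markers summed, against hours post induction (categories, not to scale). Points are single libraries and lines join means of 2. The sums on the right drop at 120 hpi to 469 and 487 CPM in WT cells, while Fn1 and Thbs1 stay above their 0 hpi levels.

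Levels between genes were compared per kilobase of exon, as the mean over the 36 libraries. Thbs1 stood highest at 1032 CPM per kb, ahead of Fn1 at 652 and Sparc at 310. Sparc encodes osteonectin, a collagen-binding glycoprotein. In GENCODE vM21 (GRCm38), Thbs1 lies at chr2:118111876-118127133, Fn1 at chr1:71585520-71653200 and Sparc at chr11:55394500-55423183, and Col1a1 and Col1a2 lie apart at chr11:94936224-94953042 and chr6:4504814-4541544. Col5a2 (93.0), Col1a1 (82.7), Col6a1 (78.1), Col12a1 (75.4) and Col5a1 (74.3 CPM per kb) followed. At the other end, Col25a1, Col6a5, Col6a4 and Col19a1 stood below 0.04 CPM per kb. Col19a1, Col25a1 and Col6a5 did not pass the filter on low counts in any fit, which left 47 members tested. In the fit of R35K cells alone, Col6a4 and Col9a2 were filtered as well and 45 were tested.

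A gene was called changed where edgeR's quasi-likelihood test gave an adjusted p (Benjamini-Hochberg) no higher than 0.05 and the change was 1.5-fold or more. At 1 hpi, 30 of the 47 members had risen in WT cells, where 10.7% of all 16988 genes tested were called higher, and 0 had fallen (9.27% of all genes). This count was 32 at 3 hpi (12% of all genes), 33 at 6 hpi (15.1%) and 37 at 18 hpi (23.9%). The members' median log2 fold change from 0 to 18 hpi was 1.19, against 0.02 over all genes. In R35A cells 27 members had risen at 1 hpi (18.3% of all genes), 23 at 3 hpi (17.9%), 24 at 6 hpi (18.5%) and 27 at 18 hpi (21%). The counts for R35K were 15 (15.5%), 17 (15.9%), 12 (16.3%) and 11 of 45 (18.4%). Few members fell at these times. Col6a6 and Col27a1 were each called lower at 1 or more of them in every construct, joined in R35K cells by Col10a1 and Col4a4.

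At 120 hpi the direction turned. In WT cells 36 of 47 members had fallen relative to 0 hpi, where 40.2% of all genes were called lower, and 2 had risen (23.1% of all genes). In R35A cells 35 had fallen (39% of all genes) and 3 had risen (24.2%). In R35K cells 35 of 45 had fallen (38.5%) and 2 had risen (25.4%). The medians of the members were −3.51, −1.95 and −2.51 on the log2 scale, against −0.36, −0.31 and −0.28 for all genes. Members with no count at 120 hpi, held at the smallest fall that a floor of 3 counts per library allows, left the medians at −3.05, −1.90 and −2.36. Scaling by DESeq2's size factors moved the fold changes of all genes up by a median of 0.16, 0.13 and 0.14 for the 3 constructs. Called lower in all 3 constructs were 33 members, and called higher in all 3 were Fn1 and Thbs1. The share of all genes called alike in all 3 was not counted, so how unusual these overlaps are is not known. The non-member fibroblast markers had medians of −3.71 in WT cells (16 of 18 called lower), −2.15 in R35A (15 of 18) and −2.50 in R35K cells (14 of 18). Called higher were 0 of these markers in WT, 1 in R35A and 1 in R35K cells. In WT cells 35 of the 47 members lay within the range of the 18 markers, from −5.86 to −0.17, whereas 4 lay above it and 8 below. That wide range also holds the median of all genes, −0.36, and the share of all genes within it was not counted.

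**Figure D2:**
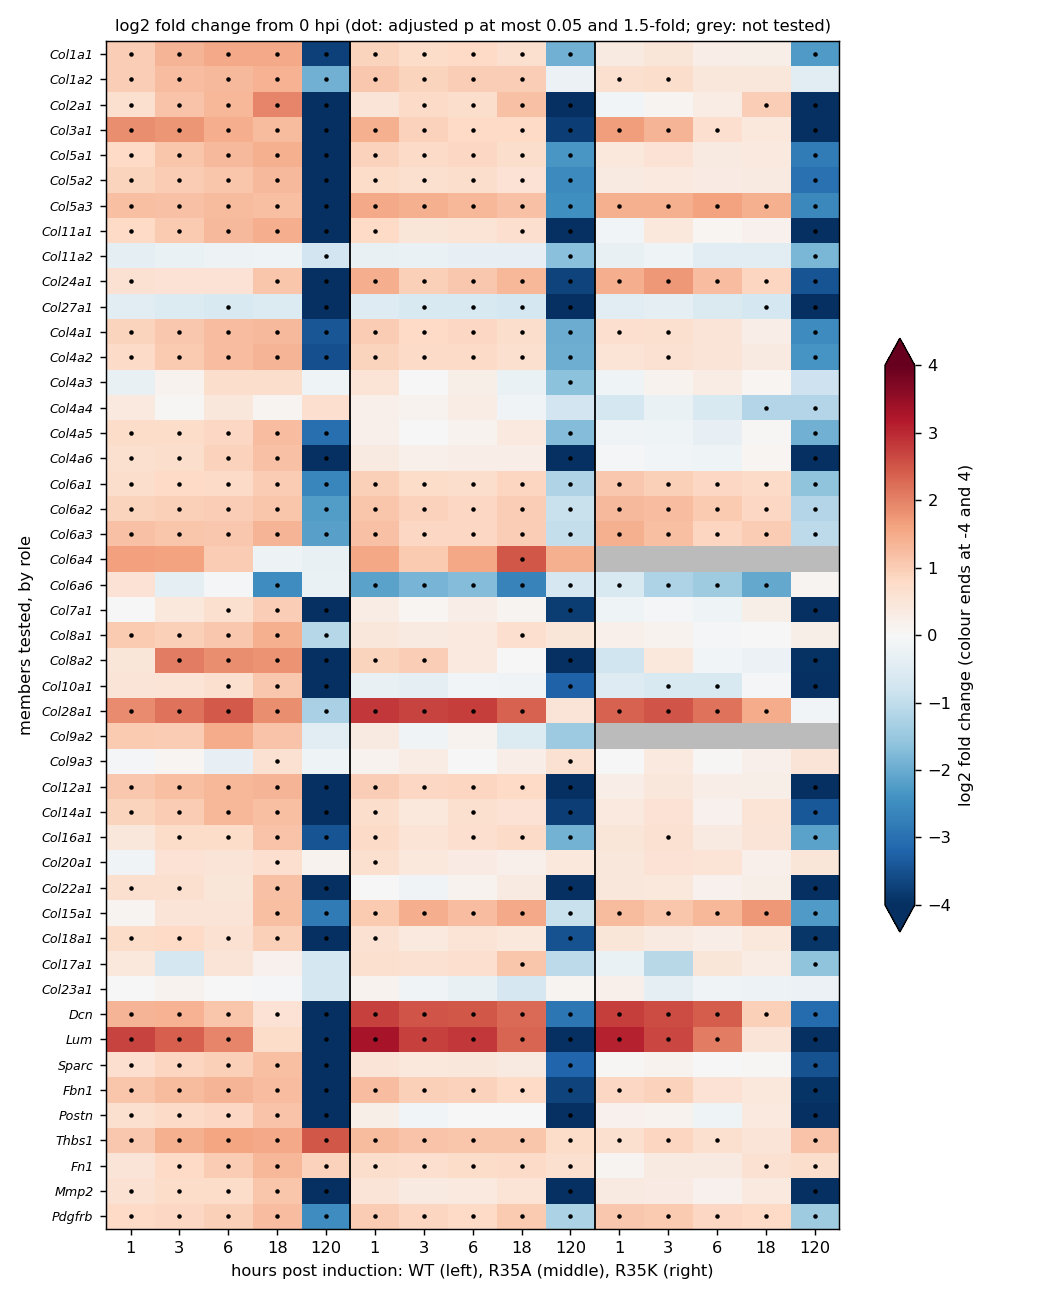
log2 fold change from 0 hpi of the members tested (rows, grouped by role) in WT, R35A and R35K cells (columns, from 1 up to 120 hpi). A dot marks a called change and grey a gene not tested; colours end at −4 and 4. Most rows are red up to 18 hpi and blue at 120 hpi, and Fn1 and Thbs1 are red in all 3 columns at 120 hpi.

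Among fibrillar collagens, all 11 tested chains had fallen at 120 hpi in WT cells, with a median log2 change of −4.22. Col1a1 encodes the α1 chain of type I collagen, the main collagen of connective tissue. In WT cells its 2 libraries had 365 and 371 CPM at 0 hpi, 715 and 732 at 1 hpi, 921 and 968 at 3 hpi, 1007 and 1085 at 6 hpi, 1059 and 1019 at 18 hpi, and 30.8 and 21.9 at 120 hpi. In R35A cells Col1a1 read 389 and 405 CPM at 0 hpi, 734 and 742 at 1 hpi, 656 and 661 at 3 hpi, 673 and 700 at 6 hpi, 623 and 634 at 18 hpi, and 106 and 101 at 120 hpi. The rise was thus highest at 1 hpi in R35A cells and reached a plateau at 6 to 18 hpi in WT cells. In R35K cells Col1a1 stayed between 439 and 569 CPM from 1 to 18 hpi and read 85.8 and 70.0 CPM at 120 hpi. The log2 changes from 0 to 120 hpi were −3.73 ± 0.060 (SE, adjusted p = 5.59e-46) in WT, −1.92 ± 0.049 in R35A and −2.25 ± 0.058 in R35K cells. Being pooled over groups, the SE does not describe the gap between the WT libraries at 120 hpi, 30.8 and 21.9 CPM.

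Col5a1 and Col5a2 encode chains of type V collagen, which nucleates type I fibrils. Col5a1 rose in WT cells from 430 and 446 CPM at 0 hpi to 1167 and 1155 at 18 hpi, and then read 26.5 and 22.5 CPM at 120 hpi. In R35A cells Col5a1 had 882 and 918 CPM at 1 hpi, 764 and 776 at 18 hpi and 91.7 and 92.0 at 120 hpi. In R35K cells Col5a1 had 456 and 482 CPM at 0 hpi, between 603 and 713 from 1 to 18 hpi, and 69.3 and 62.3 at 120 hpi. Col5a2 had 654 and 669 CPM at 0 hpi, 1626 and 1611 at 18 hpi and 37.0 and 33.2 at 120 hpi in WT cells. At 120 hpi Col5a2 stood at 118 and 126 CPM in R35A and at 89.7 and 78.7 CPM in R35K cells. Both genes were called higher than in WT cells at 120 hpi in R35A (12.4% of all genes) and in R35K cells (9.87%).

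The third type V chain, Col5a3, took another course before 120 hpi. It rose at 1 hpi by 1.19 on the log2 scale in WT, 1.53 in R35A and 1.42 in R35K cells, and its highest values lay in R35K cells at 6 hpi, with 183 and 179 CPM. WT libraries held 116 to 131 CPM of Col5a3 from 1 to 18 hpi, R35A libraries 132 to 171 and R35K libraries 155 to 183, so the mutant libraries were all above WT. None of the early differences tested (R35A at each time, R35K at 18 hpi) reached 1.5-fold, the highest being 0.45 ± 0.039 for R35A at 1 hpi. At 120 hpi Col5a3 had 2.57 and 2.99 CPM in WT, 11.1 and 9.97 in R35A and 8.85 and 10.1 in R35K cells. Col3a1, the chain of type III collagen, peaked at 1 hpi in every construct, at 472 and 495 CPM in WT, 387 and 388 in R35A and 448 and 439 in R35K cells. By 18 hpi it had come down to 321 and 321 CPM in WT, 249 and 248 in R35A and 191 and 179 in R35K cells.

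**Figure D3:**
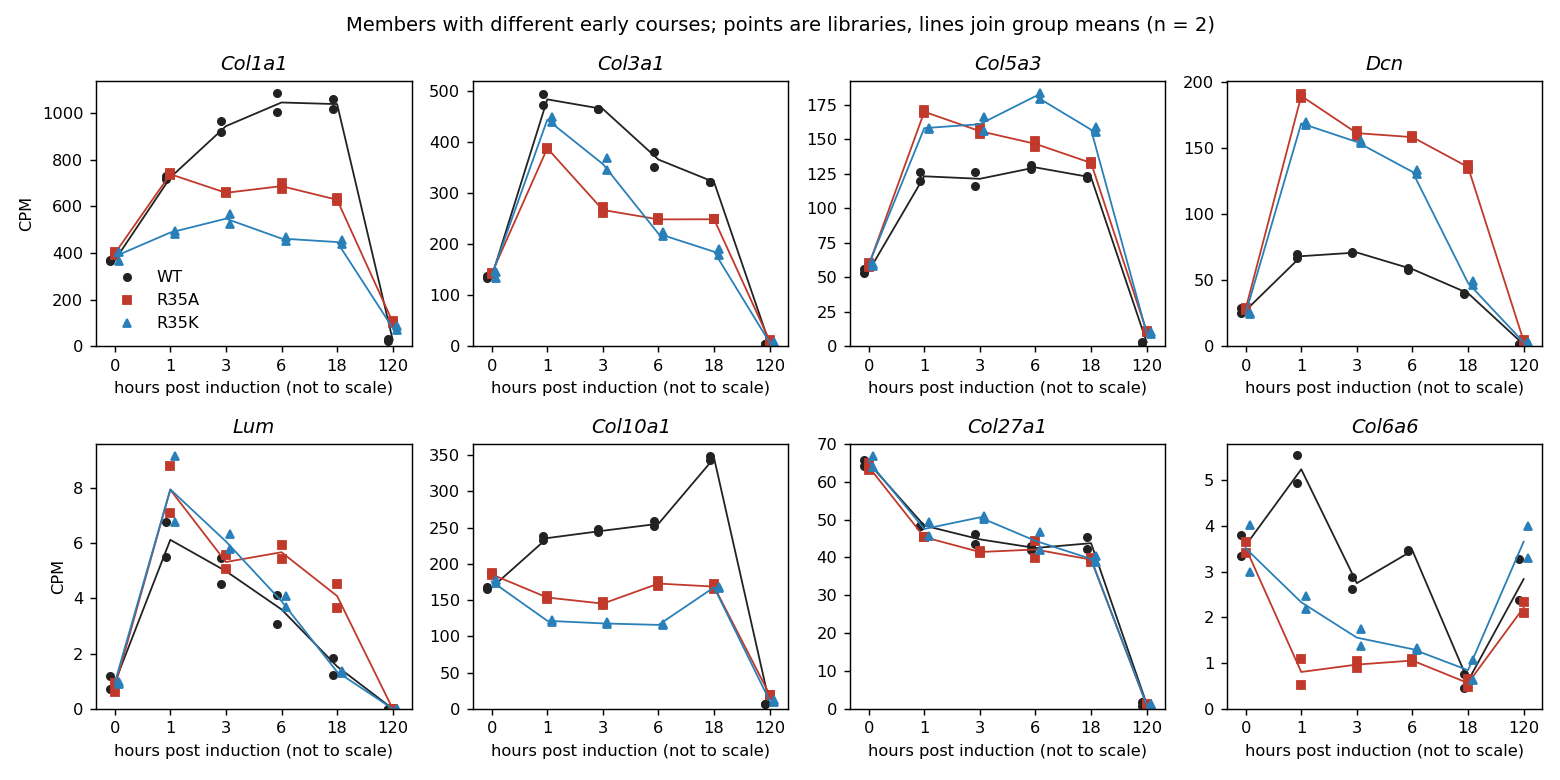
CPM against hours post induction (categories, not to scale) for 8 members with unlike early courses. Points are libraries, lines join means of 2. Dcn reaches 191 and 188 CPM in R35A cells at 1 hpi against 66.4 and 69.7 in WT cells, Col27a1 lies below its 0 hpi level at every later time, and Col6a6 returns at 120 hpi.

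Col27a1 and Col11a2 departed from the fibrillar group. Col27a1, a short-helix fibrillar collagen of cartilage, had between 63.0 and 66.8 CPM in the 6 libraries at 0 hpi and between 38.7 and 51.0 CPM in the 24 libraries at 1 to 18 hpi, with no overlap. Its largest early changes were −0.71 ± 0.062 in R35A and −0.72 ± 0.061 in R35K cells at 18 hpi, both called lower. At 120 hpi Col27a1 was at 0.779 to 1.71 CPM in all constructs, and R35A and WT cells differed by −0.34 ± 0.35 (adjusted p = 0.50). Col11a2, a chain of type XI collagen, was called at no timepoint up to 18 hpi. It read 9.95 and 14.1 CPM in WT, 7.79 and 5.49 in R35A and 6.00 and 6.05 in R35K cells at 120 hpi, against 21.0 to 22.4 CPM at 0 hpi. Col11a2 was lower in R35A than in WT cells, with a log2 difference of −0.90 ± 0.15 (adjusted p = 1.51e-06), while 6 fibrillar chains were higher in R35A cells.

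Col1a2 encodes the α2 chain that joins 2 α1 chains in type I collagen. Col1a2 read 293 and 302 CPM in WT cells at 0 hpi and 773 and 768 at 18 hpi, and it fell less than its partner, to 82.9 and 67.8 CPM at 120 hpi. In R35A cells it had 309 and 316 CPM at 0 hpi and 259 and 264 at 120 hpi. In R35K cells it had 297 and 308 CPM at 0 hpi and 229 and 195 at 120 hpi. The log2 changes from 0 to 120 hpi for Col1a2 were −1.91 ± 0.045 in WT, where it was called lower. They were −0.24 ± 0.040 in R35A and −0.47 ± 0.047 in R35K cells, where the change was smaller than 1.5-fold. The ratio of Col1a2 to Col1a1 counts was between 0.688 and 1.01 in the 30 libraries at 0 to 18 hpi and between 2.44 and 3.102 in the 6 libraries at 120 hpi. The 120 hpi libraries of each construct lay above all libraries of the earlier times.

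**Figure D4:**
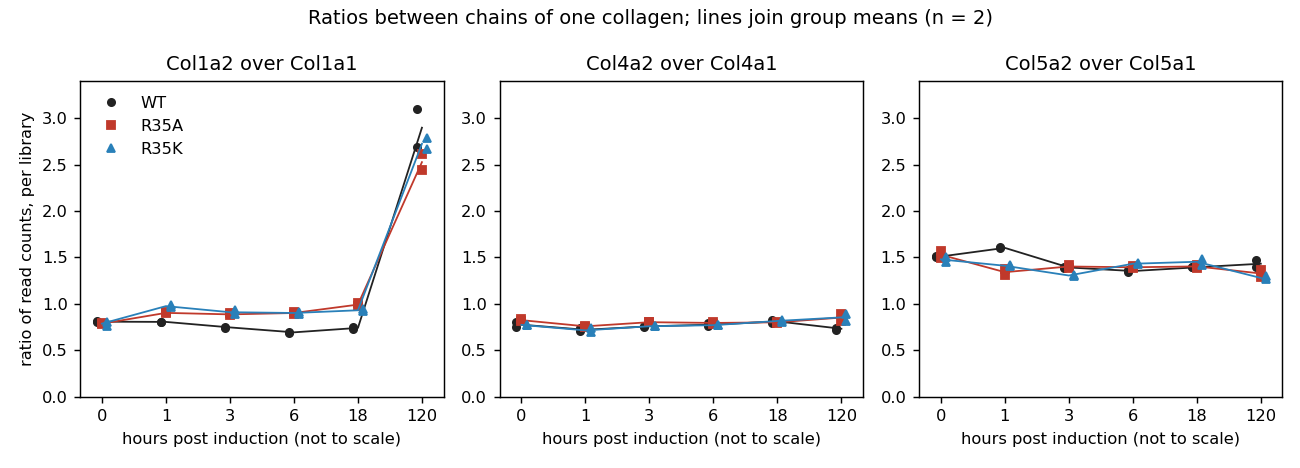
Ratio of read counts between chains of one collagen in each library, against hours post induction (categories, not to scale). Lines join means of 2 libraries. Col1a2 over Col1a1 stays at or below 1.01 up to 18 hpi and lies above 2.4 at 120 hpi, whereas Col4a2 over Col4a1 and Col5a2 over Col5a1 keep overlapping ranges when the constructs are pooled.

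The ratios of other chain pairs moved less. Col4a2 over Col4a1 was between 0.693 and 0.837 at 0 to 18 hpi and between 0.723 and 0.891 at 120 hpi. Col5a2 over Col5a1 was between 1.30 and 1.61, then between 1.26 and 1.47. Col6a2 over Col6a1 was between 0.441 and 0.572 and then between 0.568 and 0.673, and within each construct both 120 hpi libraries lay above all earlier ones. Col5a2 over Col5a1 at 120 hpi lay just below the earlier libraries in R35K cells and within their range in WT cells. Among the type V chains, the ratio of Col5a3 to Col5a1 varied most, between 0.106 and 0.300 up to 18 hpi and between 0.0967 and 0.161 at 120 hpi.

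Proximal promoter sequence is shown for 3 of these genes because their courses differed: Col1a2, which was not called changed at 120 hpi in the mutants, Col5a3, whose early course was most like that of the macrophage markers, and Col27a1, which lay below its 0 hpi level from 1 hpi. Each is the 250 bases before the RefSeq start site (GRCm38.p6), 5′ to 3′ on the strand of the gene. Capitals mark CCAAT, the CCAAT box bound by NF-Y, or TTNCNNAA, a loose form of the C/EBP site. The windows are chr6:4505368-4505617 (plus strand), chr9:20815068-20815317 (minus) and chr4:63215162-63215411 (plus). GENCODE vM21 starts Col1a2 at 4504814 and Col27a1 at 63214004, so the windows of these genes lie inside the genes as annotated there.
Col1a2: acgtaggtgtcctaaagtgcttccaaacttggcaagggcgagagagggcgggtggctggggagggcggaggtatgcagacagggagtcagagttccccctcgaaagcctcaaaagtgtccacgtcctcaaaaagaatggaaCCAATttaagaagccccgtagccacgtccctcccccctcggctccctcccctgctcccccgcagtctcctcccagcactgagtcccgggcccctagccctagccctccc
Col5a3: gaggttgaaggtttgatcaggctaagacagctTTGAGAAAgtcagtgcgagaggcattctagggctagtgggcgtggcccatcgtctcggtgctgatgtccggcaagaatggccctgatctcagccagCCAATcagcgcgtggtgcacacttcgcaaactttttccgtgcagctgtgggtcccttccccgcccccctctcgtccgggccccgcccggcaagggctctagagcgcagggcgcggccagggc
Col27a1: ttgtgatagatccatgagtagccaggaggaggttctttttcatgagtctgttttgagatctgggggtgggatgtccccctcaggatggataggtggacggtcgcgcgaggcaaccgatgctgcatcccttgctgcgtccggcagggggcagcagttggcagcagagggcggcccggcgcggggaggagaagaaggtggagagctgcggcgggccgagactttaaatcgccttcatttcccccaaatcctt
Col1a2 and Col5a3 each held 1 CCAAT box, and Col5a3 also 1 match to TTNCNNAA, which reads on the strand opposite to the one shown (capitals TTGAGAAA). Col27a1 matched neither, which says only that these letters are not in that window. Over both strands, TTNCNNAA was found in 13 of the 39 windows of the 36 members with an entry, against 36.8% of all 32851 windows. CCAAT was found in 12 of the 39 (33.8% of all) and GAGGAA, the core of the PU.1 site, in 9 (23.3% of all). The members' shares were near those of all windows.

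Of the basement membrane chains, Col4a1 and Col4a2 are transcribed in opposite directions from start sites 21 bases apart on chromosome 8. Col4a1 read 301 and 307 CPM at 0 hpi, 756 and 726 at 18 hpi and 29.3 and 24.3 at 120 hpi in WT cells, and 78.0 and 79.6 CPM in R35A cells at 120 hpi. Col4a2 read 226 and 246 CPM, 603 and 599, and 21.7 and 17.6 at the same times in WT cells, and 69.5 and 64.9 in R35A cells at 120 hpi. In R35K cells at 120 hpi the readings were 59.3 and 53.1 CPM for Col4a1 and 52.9 and 43.5 for Col4a2. Their log2 changes from 0 to 120 hpi in WT cells were −3.43 ± 0.049 and −3.51 ± 0.060. The X-linked pair Col4a5 and Col4a6 also fell in all constructs. Col4a4 was sparse. It had 18 and 15 counts in WT, 8 and 6 in R35A and 7 and 7 in R35K cells at 120 hpi, and was lower in R35A than in WT cells, at −1.41 ± 0.47 (adjusted p = 0.011).

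Among the type VI chains, Col6a1, Col6a2 and Col6a3 were called in the same direction at every timepoint in every construct, and fell at 120 hpi by less than the fibrillar median. Col6a1 had 237 and 239 CPM in WT cells at 0 hpi, 384 and 393 at 1 hpi, 471 and 477 at 18 hpi and 36.7 and 37.6 at 120 hpi. In R35A cells it read 484 and 484 CPM at 1 hpi and 99.6 and 112 at 120 hpi. In R35K cells it read 500 and 500 CPM at 1 hpi and 83.8 and 68.1 at 120 hpi. The log2 changes of Col6a1 from 0 to 120 hpi were −2.61 ± 0.046, −1.21 ± 0.039 and −1.59 ± 0.054 in WT, R35A and R35K cells. The 3 chains were higher at all of 1, 3, 6 and 18 hpi in every construct.

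Col6a6, a further type VI chain named here after its values were seen, took a different course. It had between 3.00 and 4.03 CPM at 0 hpi. At 1 hpi Col6a6 read 4.94 and 5.55 CPM in WT, 1.09 and 0.527 in R35A and 2.19 and 2.47 in R35K cells. R35A minus WT at 1 hpi was −2.70 ± 0.25 on the log2 scale (adjusted p = 1.30e-13). By 18 hpi WT cells had also come down to 0.453 and 0.771 CPM, a change of −2.50 ± 0.30 from 0 hpi. At 120 hpi Col6a6 was back at 3.29 and 2.39 CPM in WT, 2.34 and 2.09 in R35A and 3.31 and 4.01 in R35K cells. The summed B cell markers went, over the same hours, from a mean of 3894 CPM at 0 hpi to 617 at 1 hpi in R35A cells and from 4230 to 1995 in WT cells, and stood at 123 and 174 CPM at 120 hpi, and their part in the Col6a6 values was not tested.

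Col12a1, a fibril-associated collagen, lost most of its level by 120 hpi. In WT cells it had 829 and 830 CPM at 0 hpi, 2127 and 2102 at 18 hpi and 5.61 and 7.08 at 120 hpi. In R35A cells it had 842 and 827 CPM at 0 hpi, 1647 and 1669 at 1 hpi and 9.89 and 10.5 at 120 hpi. In R35K cells it had 837 and 850 CPM at 0 hpi and 9.54 and 10.3 at 120 hpi. The fall from 0 hpi for Col12a1 was −6.96 ± 0.051 in WT, −6.34 ± 0.046 in R35A and −6.36 ± 0.049 in R35K cells. The difference of R35A from WT at 120 hpi, 0.64 ± 0.087 on the log2 scale, was the smallest of the 24 called higher.

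Col8a1, a short-chain network collagen, is named after its values were seen. Like Col1a2 and the sparse Col28a1, it was called lower at 120 hpi in WT cells and in neither mutant. Col8a1 had 115 and 111 CPM in WT cells at 0 hpi and 52.5 and 44.5 at 120 hpi. In R35A cells it had 120 and 119 CPM at 0 hpi and 164 and 168 at 120 hpi, and in R35K cells 113 and 117, then 129 and 133. Col8a1 was called higher than in WT cells at 120 hpi in both R35A (12.4% of all genes) and R35K cells (9.87%). Col10a1, the chain of hypertrophic cartilage collagen, differed between constructs early. In WT cells it rose from 169 and 166 CPM at 0 hpi to 343 and 349 at 18 hpi. In R35A cells Col10a1 stayed between 143 and 187 CPM up to 18 hpi, and R35K cells had 119 and 116 CPM at 3 hpi, called lower at −0.59 ± 0.043.

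Dcn and Lum, named after their values were seen, rose at 1 hpi in every construct. Dcn had between 24.7 and 28.7 CPM in the 6 libraries at 0 hpi. At 1 hpi Dcn read 66.4 and 69.7 CPM in WT, 191 and 188 in R35A and 167 and 170 in R35K cells, and the changes were 1.35 ± 0.061, 2.73 ± 0.051 and 2.77 ± 0.050 on the log2 scale. R35A exceeded WT by 1.46 ± 0.045 at 1 hpi (adjusted p = 4.43e-32) and by 1.74 ± 0.050 at 18 hpi. At 18 hpi Dcn had 39.5 and 40.5 CPM in WT, 137 and 134 in R35A and 49.4 and 46.1 in R35K cells, so R35K had come close to WT by then. At 120 hpi it read 1.04 and 1.37 CPM in WT, 4.59 and 3.03 in R35A and 2.62 and 3.02 in R35K cells. Lum was far lower, with 9 to 17 counts per library at 0 hpi and 91 to 154 at 1 hpi, and had no count in any of the 6 libraries at 120 hpi. Against a floor of 3 counts per library, Lum was lower at 120 hpi than at 0 hpi by at least 3.79-fold in WT, 3.44-fold in R35A and 4.08-fold in R35K cells.

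Sparc and Fbn1 (fibrillin 1, the core of elastic microfibrils) followed the collagens. Sparc had 1000 and 1019 CPM in WT cells at 0 hpi, 1589 and 1614 at 1 hpi, 2295 and 2285 at 18 hpi and 40.3 and 33.3 at 120 hpi. In R35A cells it had 1072 and 1064 CPM at 0 hpi, 1538 and 1543 at 1 hpi, 1371 and 1398 at 18 hpi and 117 and 116 at 120 hpi. In R35K cells Sparc stayed between 1006 and 1160 CPM from 0 to 18 hpi, with no call at any of these times, and read 93.8 and 81.6 at 120 hpi. The fall of Sparc from 0 to 120 hpi was −4.70 ± 0.043 in WT, −3.18 ± 0.037 in R35A and −3.50 ± 0.045 in R35K cells. Fbn1 had 298 and 292 CPM in WT cells at 0 hpi, between 620 and 774 from 1 to 18 hpi and 7.86 and 8.11 at 120 hpi, where R35A cells had 22.2 and 23.0 and R35K cells 18.9 and 18.07.

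Postn (periostin), Mmp2 (a gelatinase) and Pdgfrb (a receptor of mesenchymal cells) also fell. Postn was down to 2 to 6 counts in each library at 120 hpi and Mmp2 to 22 to 52 counts. Pdgfrb changed by −2.50 in WT, −1.27 in R35A and −1.44 in R35K cells. Col11a1 had no count at 120 hpi in R35A and R35K cells, at least 186-fold and 179-fold below 0 hpi against the same floor, and 0 and 2 counts in WT cells.

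Fn1 and Thbs1 were the most abundant members and the only ones called higher at 120 hpi in all 3 constructs. Fn1 read 4848 and 4905 CPM in WT cells at 0 hpi, 6867 and 6965 at 1 hpi, 12183 and 11944 at 18 hpi and 8895 and 8675 at 120 hpi. In R35A cells Fn1 read 5081 and 5175 CPM at 0 hpi, 8462 and 8453 at 1 hpi, 8721 and 8844 at 18 hpi and 7498 and 8119 at 120 hpi. In R35K cells it read 4925 and 5217 CPM at 0 hpi, 5499 and 5350 at 1 hpi, 7640 and 7810 at 18 hpi and 7916 and 8203 at 120 hpi. Fn1 thus came down from 18 to 120 hpi in WT and R35A cells, far less than the fibroblast markers. In R35K cells its CPM was highest at 120 hpi. The TMM factors of the R35K libraries were 1.06 and 1.05 at 0 hpi, 1.01 and 1.02 at 18 hpi, and 0.864 and 0.855 at 120 hpi. Smaller factors give higher CPM from the same share of counts, so the order of 18 and 120 hpi in R35K cells depends on this scaling. The changes of Fn1 from 0 to 120 hpi were 0.92 ± 0.023 in WT (adjusted p = 1.50e-37), 0.62 ± 0.023 in R35A and 0.72 ± 0.026 in R35K cells. The R35A change lay close to the 1.5-fold threshold. Factors for the printed CPM of R35A cells were 1.05 and 1.07 at 0 hpi and 0.877 and 0.829 at 120 hpi. The call of Fn1 as higher in R35A cells thus also depends on the scaling. The differences of R35A and R35K from WT at 120 hpi, −0.21 and −0.17, were below 1.5-fold.

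Thbs1 read 2906 and 2945 CPM in WT cells at 0 hpi, 6096 and 6231 at 1 hpi, 8477 and 8955 at 6 hpi, 8287 and 8332 at 18 hpi and 15603 and 15684 at 120 hpi. In R35A cells Thbs1 had 3057 and 2988 CPM at 0 hpi, 7392 and 7393 at 1 hpi, 6517 and 6544 at 18 hpi and 4857 and 5107 at 120 hpi. In R35K cells Thbs1 had 2886 and 3018 CPM at 0 hpi, 4613 and 4600 at 1 hpi, 4177 and 4222 at 18 hpi and 6183 and 6423 at 120 hpi. Between 18 and 120 hpi the level thus went up in WT and R35K cells and down in R35A cells. The changes from 0 to 120 hpi were 2.49 ± 0.022 in WT, 0.74 ± 0.021 in R35A and 1.144 ± 0.025 in R35K cells. Thbs1 was lower than in WT cells at 120 hpi, with log2 differences of −1.69 ± 0.022 in R35A (adjusted p = 7.85e-48) and −1.35 ± 0.022 in R35K cells. Summed macrophage markers had means of 20636 CPM in WT, 31157 in R35A and 28139 in R35K cells at 120 hpi. Of these 14 markers, 2 were called higher in R35A than in WT cells and 0 lower (median 0.18), and 2 higher and 1 lower in R35K cells (median 0.11).

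Each member's log2 level was also set against the mean of the fibroblast markers and that of the macrophage markers, as a description. The 30 libraries at 0 to 18 hpi share feeders, protocol and construct sets, and the 6 at 0 hpi stand apart from the rest. Pearson's r with the fibroblast course was 0.8 or more for 19 of 47 members, where 10.7% of all genes reached it. Fn1 (r = 0.86) and Thbs1 (r = 0.92) were among them. Their r with the macrophage course was 0.32 and 0.39. Over the 24 libraries at 1 to 18 hpi alone, only Col16a1 (r = 0.91) reached 0.8 with the fibroblast course, as did 2.23% of all genes, and the median r was 0.50 for members and −0.03 for all genes. Fn1 and Thbs1 had 0.73 and 0.76. The count thus rested on the libraries at 0 hpi. With the macrophage course, 4 members reached 0.8 over the 30 libraries (Col5a3, Col6a1, Col6a2 and Dcn; 11.2% of all genes). Col5a3 alone still did so at 1 to 18 hpi (r = 0.84; 7.89% of all genes). Up to 18 hpi, then, Fn1 and Thbs1 ran with the fibroblast markers more than with the macrophage markers, and they parted from them at 120 hpi.

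At 0 hpi no gene was called between R35A and WT cells by edgeR or DESeq2. At an unadjusted p under 0.05 edgeR had 1618 of 16988 genes, 20 of them members. The median difference over all 47 members tested was 0.09. For R35K against WT the counts were also 0, with 1010 of 17277 genes and 10 members at the unadjusted threshold. At 1 hpi 4 members were higher in R35A cells (8.51% of all genes) and 2 were lower (10.8%). At 3 hpi it was 1 (7.95%) and 7 (9.04%), and at 6 hpi 2 (6.2%) and 6 (7.52%). At 18 hpi R35A cells had 3 members above WT, Dcn, Lum and Col6a4 (6.9% of all genes), and 14 below (3.17%), among them Col1a1, Col5a1, Col5a2, Sparc and Postn. At 18 hpi R35K cells had 1 member above WT (10.5% of all genes) and 25 below (4.78%), Fn1 and Thbs1 included. The fibroblast marker sum at 18 hpi was 13198 CPM in WT, 9808 in R35A and 7939 in R35K cells, and its part in these differences was not tested.

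At 120 hpi more members were above WT than below. Higher in R35A than in WT cells were 24 of 47 members (12.4% of all genes) and lower 3 (6.38%), with a median log2 difference of 1.21 for members and 0.05 for all genes. Higher in R35K than in WT cells were 21 (9.87%) and lower 3 (3.97%). The 21 were all among the 24, and the same 3 members, Thbs1, Col4a4 and Col11a2, were lower in both. These comparisons share the WT libraries, and the share of all genes called alike in both was not counted, so how unusual this overlap is is not known. Among the members called higher, the largest differences of R35A were those of Col1a1 (1.93 ± 0.064), Col5a3 (1.88 ± 0.14), Col5a1 (1.86 ± 0.051), Col5a2 (1.75 ± 0.043) and Col1a2 (1.75 ± 0.045). The non-member fibroblast markers differed by a median of 1.53 in R35A (15 of 18 called higher) and 1.21 in R35K cells (14 of 18). Of the 47 members, 41 lay within the range of the markers for R35A, from −0.53 to 2.05, 5 below and 1, Col22a1, above (2.52, adjusted p = 0.38, not called). That wide range also holds the median of all genes, 0.05, and the share of all genes within it was not counted. The sum of the fibroblast markers at 120 hpi was 487 ± 44 CPM in WT, 1440 ± 148 in R35A and 1183 ± 66 in R35K cells, and its part in the members' differences was not tested. Bgn alone gave 268 and 225 CPM of that sum in WT, 680 and 811 in R35A and 636 and 589 in R35K libraries.

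**Figure D5:**
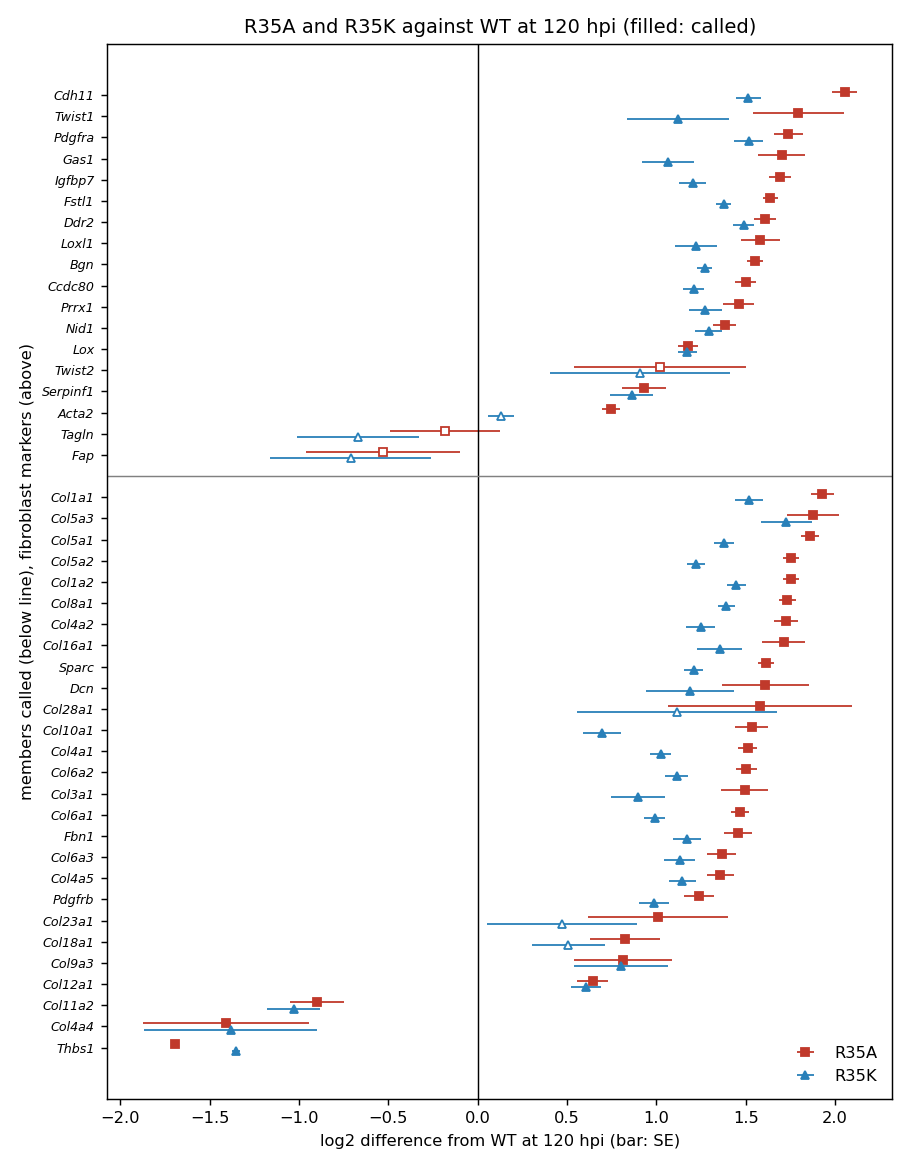
log2 difference from WT at 120 hpi of R35A (squares) and R35K (triangles), with SE, for members called in either comparison (below the line) and for the 18 non-member fibroblast markers (above it). Filled symbols are called. Most members and markers lie between 0.5 and 2, and Thbs1, Col4a4 and Col11a2 lie to the left of 0.

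The change from 0 to 120 hpi itself differed between R35A and WT cells for 25 members in an interaction test, 23 upward (9.85% of all genes) and 2 downward (4.63%). Thbs1 (−1.75 ± 0.030, adjusted p = 1.01e-41) and Col11a2 (−0.92 ± 0.18) were the 2 downward. Col4a4 did not pass (−1.44 ± 0.63, adjusted p = 0.074).

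Genes that make, bind and degrade collagen were looked at beside the members, against the 23.1% of all genes called higher and 40.2% called lower at 120 hpi in WT cells, and 23.9% called higher at 18 hpi. Of 25 genes for collagen folding, processing and crosslinking, 22 were higher at 18 hpi in WT cells and 17 lower at 120 hpi, where 6 were higher. The chaperone Serpinh1 (HSP47) had log2 changes of −4.07 in WT and −2.40 in R35A cells at 120 hpi, and lysyl oxidase Lox −3.67 and −2.57. Lox and Loxl1 of this list, and Ddr2 of the matrix receptors below, also belong to the non-member fibroblast markers, so the lists share genes. The lysyl hydroxylases Plod1 (2.76 in WT) and Plod3 (1.69) and the prolyl hydroxylase subunit P4ha1 (1.28) were higher. Of these 25 genes, 16 were higher and 1 lower in R35A than in WT cells at 120 hpi (12.4% and 6.38% of all genes). Of 15 matrix receptors tested, 4 were higher and 9 lower at 120 hpi in WT cells. The inhibitory collagen receptor Lair1 (5.21), the α1 integrin chain Itga1 (4.42), Cd36 (3.57) and Cd47 (0.72), both Thbs1 receptors, were the 4 higher. Of 12 proteases and inhibitors, 6 were higher, such as the macrophage elastase Mmp12 (7.82) and cathepsin S (Ctss, 5.86), and 6 lower, such as Mmp14 (−2.60) and the inhibitors Timp1 (−3.99) and Timp3 (−7.02).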

How the data were processed

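RNA-seq libraries were prepared by the authors with a stranded mRNA kit. Per the labels' processing notes, FastQC, STAR 2.5.0a (mm10) and DESeq2 1.14.1 were used. The authors deposited raw counts per gene (STAR GeneCounts), one table for WT and R35A and one for R35K, and log2 values that equalled log2(count / size factor + 1) with one factor per library. The annotation release and the strand column taken are not given in the sources used here. Of the 50 members, 13 overlap exons of a gene on the opposite strand, Fn1, Thbs1 and Col10a1 among them, and 3 on the same strand, so their counts may hold reads of those genes.

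Here counts were normalised by TMM (36 libraries for printed CPM) and tested with edgeR 4.0.16 (filterByExpr, quasi-likelihood, adjusted over all genes tested), in one fit of 24 WT and R35A libraries, one of 12 R35K libraries and one of all 36 for R35K against WT. DESeq2 1.42.0 was an alternative. Scripts were tested on simulated data. Exon lengths and gene positions are from GENCODE vM21, promoters from RefSeq. Likeness used log2(CPM + 1). Per-library values are printed for Fn1, Thbs1, Sparc, the 12 members of highest mean CPM and the up to 5 members most changed each way by R35A at 120 hpi; others named with such values were chosen after their values were seen. The members and all gene lists were chosen with earlier results of these data known.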

Additional observations from a re-analysis of the deposited data

Results flagged for a closer look

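For 25 of 47 members the change from 0 to 120 hpi differed between R35A and WT cells in the edgeR interaction test, where 14.5% of all genes were called. The non-member fibroblast markers had a median difference of 1.435, with 15 of 18 called upward. Given next for each member is the log2 difference of R35A minus WT. Among fibrillar chains it was 1.81 for Col1a1, 1.67 for Col1a2, 1.42 for Col3a1, 1.75 for Col5a1, 1.63 for Col5a2, 1.76 for Col5a3 and −0.92 for Col11a2. Among basement membrane chains it was 1.44 for Col4a1, 1.57 for Col4a2 and 1.26 for Col4a5. Among type VI chains it was 1.40 for Col6a1, 1.34 for Col6a2 and 1.23 for Col6a3. It was 1.64 for Col8a1, 1.37 for Col10a1, 0.62 for Col12a1, 1.55 for Col16a1, 0.76 for Col18a1, 1.95 for Col15a1 and 1.81 for Col28a1. Col15a1 and Col28a1 had adjusted p-values of 0.029 and 0.030, and at 120 hpi Col15a1 had only 1 to 9 and Col28a1 only 2 to 23 counts per library in these groups. Outside the collagens it was 1.52 for Sparc, 1.43 for Fbn1, 1.54 for Dcn, 1.23 for Pdgfrb and −1.75 for Thbs1.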

How the results depend on the processing

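Of the comparison counts over all alternatives, 143 stayed within 1.5 times the reported count and 10 did not, and no result reversed. Of the results for single named genes, 1095 stayed the same, 27 lost their call and 3 gained one. The counts of members higher at 120 hpi were small and moved most. With a 2-fold threshold they were 1 in WT, 0 in R35A and 1 in R35K cells, and the interaction had 1 member lower. With only the compared groups in the fit they were 5 in R35A and 4 in R35K cells, and with DESeq2's size factors 4 in R35K cells. Leaving out 1 library at a time, they lay between 2 and 5 in R35A cells (5 without the second R35A library at 120 hpi) and between 2 and 4 in R35K cells (4 without the second R35K library at 120 hpi). In an alternative chosen after seeing the data, without the libraries at 0 hpi, members alike to the fibroblast course numbered 1 in place of 19. Replicate numbers did not pair the libraries (median correlation of deviations −0.006 over 153 pairs of groups). With a replicate block, 24 members were higher in R35A than in WT cells at 120 hpi and 36 lower at 120 hpi in WT cells, and no comparison count moved by over 1.5 times. With 2 libraries a group, members under about 20 counts, such as Col4a4 and Col6a4, have wide errors.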
